A study of Mus musculus with 2 samples.

Results

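Accessible CpG-poor promoters are described here in whole mouse embryos of 11 days. A promoter was called CpG-poor when the CpG observed-to-expected ratio was below 0.25 in the window of 500 bp to either side of the most upstream annotated transcription start site (TSS) of a protein-coding gene. This ratio is the number of CpG dinucleotides times the window length, divided by the product of the C and G counts. It was called accessible when a DNase I peak of both replicates came within 500 bp of that TSS. Of 20807 protein-coding genes of GENCODE M21 on chromosomes 1 to 19 (mm10), 5813 were CpG-poor, and 568 of these were accessible. They are 9.77% of the CpG-poor promoters, with a Wilson 95% interval from 9.03% to 10.6%. Over all protein-coding promoters the share was 66.0%. The regions are the 727 peaks of replicate 1 in these windows, of 204697 in its list. Replicate 2 had 768 there, of 231103. The promoters were chosen by their CpG ratio and by the peaks themselves, so these shares and the scores below are descriptions, and no test was run on them.

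The assay was DNase-seq, in which DNase I cuts DNA that nucleosomes leave exposed and the cut ends are sequenced. The samples form 1 group, embryo, of strain B6NCrl, with 2 biological replicates that each pool male and female embryos. The replicates have separate biosample entries and a common donor entry. No other stage, tissue or treatment was analysed here, and a whole embryo mixes all of its cell types, so a weak peak may come from few cells or from low accessibility in many, and these cannot be told apart. The files hold intervals and no reads, so the read depth is unknown, and every interval given covers counting error over promoters or peaks only.

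CpG dinucleotides are rare in the mouse genome because methylated cytosine is prone to mutate to thymine. Most promoters of widely used genes lie in CpG islands, which stay unmethylated and open in nearly all cells. CpG-poor promoters are mostly methylated, belong largely to genes used in a few cell types, and can carry a TATA box, the element bound by the TATA-binding protein a short way upstream of the start site.

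The sequences of 9 accessible CpG-poor promoters are shown so that the motifs counted further on can be seen in place. Each is the part of the best-scoring replicate 1 peak that lies outside every annotated exon, read 5′ to 3′ on the strand of the gene from the RefSeq GRCm38 (mm10) genome. Capitals mark TATAAA, the E-box CAGCTG, the CCAAT box bound by NF-Y and the GC box GGGCGG bound by Sp and Klf factors, on either strand. The first 4 come from gene groups described below, and the last 5 carry TATAAA in the expected place.
Neurod4, chr10:130280241-130280325, minus strand: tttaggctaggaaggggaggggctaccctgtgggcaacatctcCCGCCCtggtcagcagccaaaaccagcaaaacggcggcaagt
Cnn1, chr9:22099116-22099215, plus strand: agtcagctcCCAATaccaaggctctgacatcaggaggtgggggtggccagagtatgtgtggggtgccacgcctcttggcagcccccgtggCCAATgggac
F7, chr8:13025936-13026033, plus strand: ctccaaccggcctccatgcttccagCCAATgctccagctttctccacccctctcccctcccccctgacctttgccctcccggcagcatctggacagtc
Cd68, chr11:69666236-69666385, minus strand: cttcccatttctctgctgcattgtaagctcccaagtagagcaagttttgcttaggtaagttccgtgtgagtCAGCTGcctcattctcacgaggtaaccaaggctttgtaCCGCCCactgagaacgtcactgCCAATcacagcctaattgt
Adamtsl2, chr2:27079256-27079378, plus strand: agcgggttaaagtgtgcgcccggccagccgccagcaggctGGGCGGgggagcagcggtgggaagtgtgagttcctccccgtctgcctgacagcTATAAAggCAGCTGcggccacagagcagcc
Acy3, chr19:3986416-3986565, plus strand: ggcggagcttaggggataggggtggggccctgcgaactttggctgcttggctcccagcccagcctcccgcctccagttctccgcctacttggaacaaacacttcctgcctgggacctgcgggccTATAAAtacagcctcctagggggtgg
Postn, chr3:54361036-54361108, plus strand: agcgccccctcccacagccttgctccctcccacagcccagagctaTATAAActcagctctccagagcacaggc
Serpinb1a, chr13:32851186-32851265, minus strand: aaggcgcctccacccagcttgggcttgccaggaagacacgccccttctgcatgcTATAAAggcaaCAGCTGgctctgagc
Ecm1, chr3:95739570-95739685, minus strand: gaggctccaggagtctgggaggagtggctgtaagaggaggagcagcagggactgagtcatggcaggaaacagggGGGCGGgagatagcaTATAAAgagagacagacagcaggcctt

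A further 4 sequences are from major histocompatibility complex (MHC) class II genes, a family picked out after the values were seen.
H2-Eb1, chr17:34305721-34305865, plus strand: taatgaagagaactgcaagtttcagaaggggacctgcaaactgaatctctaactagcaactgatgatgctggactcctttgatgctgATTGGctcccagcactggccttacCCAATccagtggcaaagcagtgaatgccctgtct
H2-Aa, chr17:34287824-34287945, minus strand: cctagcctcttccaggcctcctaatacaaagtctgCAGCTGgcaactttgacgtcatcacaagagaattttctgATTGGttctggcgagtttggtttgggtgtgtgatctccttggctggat
H2-Eb2, chr17:34325536-34325664, plus strand: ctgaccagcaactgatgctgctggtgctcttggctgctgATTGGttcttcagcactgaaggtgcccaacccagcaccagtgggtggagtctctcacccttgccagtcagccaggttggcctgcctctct
H2-Ob, chr17:34238736-34238885, plus strand: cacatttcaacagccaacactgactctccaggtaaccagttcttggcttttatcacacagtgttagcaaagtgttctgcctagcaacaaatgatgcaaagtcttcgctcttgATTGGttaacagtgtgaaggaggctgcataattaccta

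The printed stretches of H2-Eb1 and H2-Eb2 held no CpG at all. That of Adamtsl2 held 8, beside its TATAAA, an E-box and a GC box. The 4 class II stretches each hold a CCAAT box, mostly written as its reverse complement ATTGG. A stretch of H2-DMb2, not printed, holds none of the marked motifs.

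A peak was found more often at the higher CpG ratios within the CpG-poor range. Among promoters with a ratio under 0.05, 8 of 501 had a peak in both replicates (1.6%). The share was 3.82% from 0.05 to 0.10, 6.59% from 0.10 to 0.15, 12.3% from 0.15 to 0.20 and 21% from 0.20 to 0.25. It went on to 32.2% in the next bin above the threshold and to 91.4% from 0.50 to 0.55, so 0.25 is a point on a slope. Just inside the threshold lay Rbms2 (ratio 0.2496), Ccn4 (0.2492) and Kcnip3 (0.2490). Their peak scores in replicates 1 and 2 were 49 and 69 for Rbms2, 65 and 85 for Ccn4, and 76 and 84 for Kcnip3. Just outside, all at 0.25 after rounding, lay Hacd4 with 94 and 103, Tlr12 with 44 and 51, and 2610528J11Rik with 33 and 39. The score is a whole number from 1 to 150 that the authors deposited, and how it was made is not stated in these sources.

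**Figure D1:**
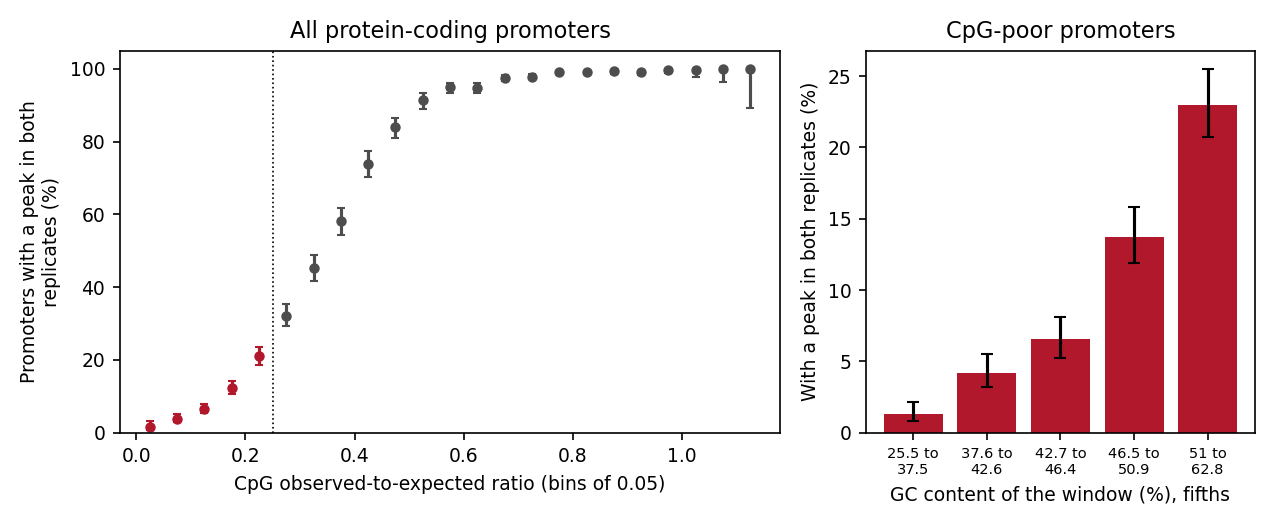
Left, share of protein-coding promoters with a peak in both replicates (y axis, %) by CpG observed-to-expected ratio (x axis, bins of 0.05 with at least 20 promoters). Red bins are CpG-poor, the dotted line is the threshold of 0.25, and the share climbs from 1.6% to 21% below it. Right, the same share among CpG-poor promoters by GC content of the window in 5 bins of near-equal number (x axis, %), from 1.3% to 23%. Bars are Wilson 95% intervals.

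GC content separated the CpG-poor promoters further, although the rule set no limit on GC content itself. When they were split into 5 bins of near-equal number by GC content, the lowest had GC from 25.5% to 37.5%, and 15 of its 1153 promoters were accessible (1.3%, interval 0.79% to 2.14%). In the highest bin, with GC from 51% to 62.8%, it was 269 of 1169 (23%, interval 20.7% to 25.5%). The C and G counts also enter the CpG ratio, and the parts of GC content and CpG ratio in this gradient were not tested.

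Accessible CpG-poor promoters also stood in neighbourhoods with more open chromatin. Distal peaks, here replicate 1 peaks that overlapped a replicate 2 peak and lay over 1 kb from every protein-coding TSS, were counted within 50 kb to either side. The median was 6 for accessible CpG-poor promoters, 2 for CpG-poor promoters without a peak in both replicates, and 6 for other promoters with one. Of CpG-poor promoters with 0 distal peaks around them, 29 of 1743 were accessible (1.66%). With 11 or more, it was 97 of 492 (19.7%). Within the GC-richest bin the share was 4 of 35 (11.4%, interval 4.54% to 26%) with 0 distal peaks and 190 of 734 (25.9%, interval 22.8% to 29.2%) with 6 or more. Within the GC-poorest bin the shares were 2 of 770 (0.26%) and 0 of 30, with a Wilson upper bound of 11.4%.

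Agreement between the replicates was counted at CpG-poor and at other promoters, with no test. Replicate 1 had a peak at 677 (11.6%) and replicate 2 at 734 (12.6%) of the CpG-poor promoters. A peak in replicate 1 only was found at 109 and in replicate 2 only at 166. Of CpG-poor promoters with any peak, 67.4% had one in both (568 of 843, interval 64.1% to 70.5%), against 97.5% of other promoters (13155 of 13497, interval 97.2% to 97.7%). Peaks seen once were weak, with a median score of 28 for replicate 1 only and 33 for replicate 2 only. At the 568 promoters the best peak of replicate 1 overlapped a replicate 2 peak in 555 cases (97.7%). Of all 727 peaks, 656 did so (90.2%). Spearman's rho between the replicates' best scores was 0.926 over the 568 promoters, which share the same 2 libraries. For replicate 2, a peak overlapping the best replicate 1 peak was taken where there was one. The 568 were chosen for a peak in both replicates, so the overlap and rho leave out the promoters where the replicates differed.

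Peaks at accessible CpG-poor promoters had scores near those of distal peaks and far below those of other promoters. Their best peak had a median score of 48 in replicate 1, with quartiles of 36 and 73, and 58 in replicate 2, with quartiles of 41 and 82. Other promoters with a peak had medians of 126 and 131. Distal peaks had a median of 47 in replicate 1, with quartiles of 35 and 65. Every distal peak was counted, whereas a promoter gave only its best peak. Over all 727 replicate 1 peaks at CpG-poor promoters the median was 45, with quartiles of 33 and 67. The best peak was taken from a median of 1 replicate 1 peak at CpG-poor promoters and of 2 at other promoters. The top of the CpG-poor range still reached deep into the promoter range, with highest scores of 139 and 141. The score and the CpG ratio of these promoters had a Spearman rho of 0.274, and the score and the GC content of the peak one of 0.344, both over 568 promoters by mean rank of both replicates.

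**Figure D2:**
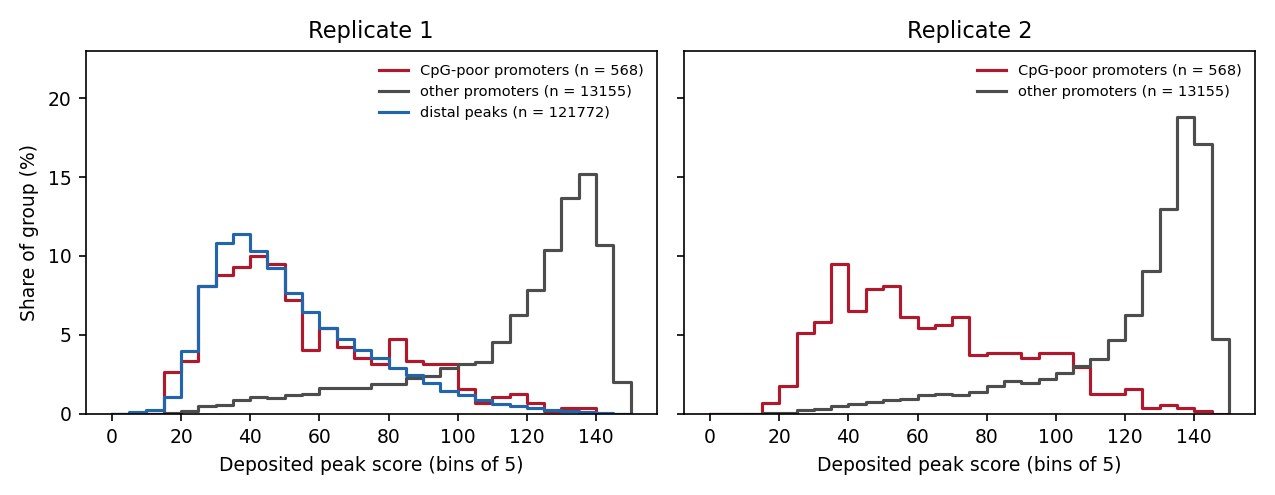
Deposited score of the best peak per promoter (x axis, bins of 5) against the share of the group (y axis, %), for each replicate. CpG-poor promoters (red, median 48 and 58) overlie the distal peaks, all of them counted, shown for replicate 1 (blue, median 47). Other promoters (grey, median 126 and 131) crowd at the high end.

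Hotspots, the broader regions of enriched cutting, gave the same order. Their deposited value is the −log10 of a q value, which runs from 1.3 to 6 and then jumps to a ceiling of 100 with nothing between. The hotspot under the best peak was at the ceiling for 247 of the 568 CpG-poor promoters in replicate 1 (43.5%, interval 39.5% to 47.6%) and for 292 in replicate 2 (51.4%, interval 47.3% to 55.5%). It was at the ceiling for 94% and 95.6% of other promoters with a peak. For distal peaks the share was 39% in replicate 1. The hotspots were also narrow, with a median width of 313 bp and 353 bp at CpG-poor promoters and of 1142 bp and 1329 bp at the others. A lone replicate 1 peak in the window was the rule at CpG-poor promoters (75.9%, against 44.9% at the others).

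Peaks at CpG-poor promoters centred near the start site but were more scattered. The midpoint of the best replicate 1 peak lay at a median of −19.5 bp, that is upstream, with quartiles of −98.5 bp and 134 bp. In replicate 2 the median was −17 bp. For other promoters the median was −21.5 bp and the quartiles −72.5 bp and 45.5 bp. The peak covered the start site at 38% of the CpG-poor promoters and at 54.6% of the others. It lay wholly upstream at 31.5% and wholly downstream at 30.5%, against 24.3% and 21.1%. By midpoint, 271 of the 568 best peaks were outside protein-coding genes (47.7%), 162 in an untranslated exon (28.5%), 96 in an intron (16.9%) and 39 in another exon (6.87%). At the edge of the search, the nearest bases of the peaks of Pklr, Gp5 and Itga6 lay 494, 494 and 491 bp from the TSS.

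**Figure D3:**
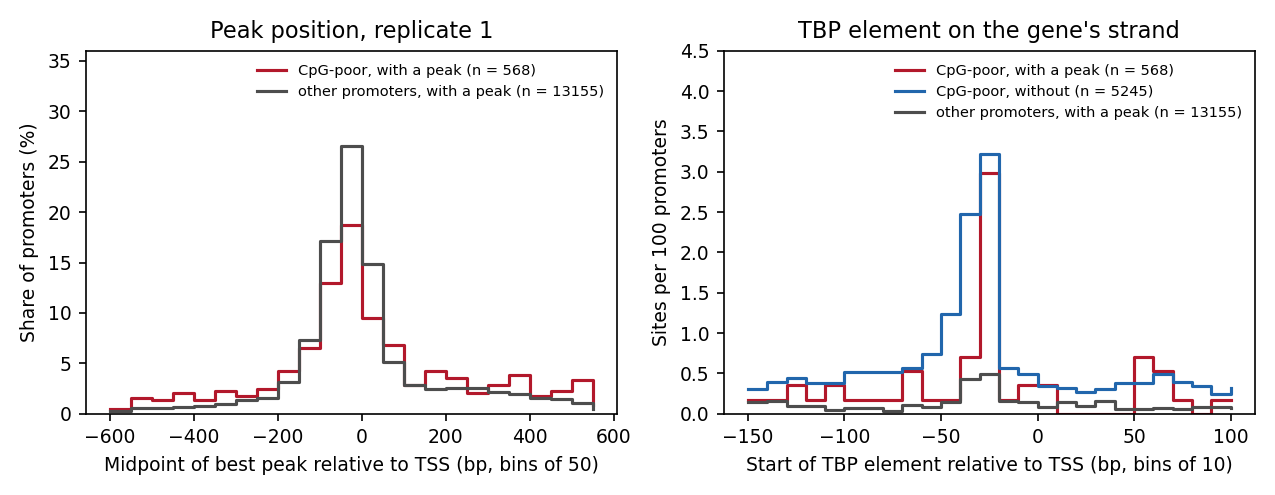
Left, midpoint of the best replicate 1 peak relative to the TSS (x axis, bp in bins of 50, negative upstream) against the share of promoters (y axis, %); CpG-poor promoters (red) have broader shoulders than others (grey). Right, start of the TBP element TATAAA on the strand of the gene (x axis, bp in bins of 10) against sites per 100 promoters (y axis), which peaks just upstream of the TSS in CpG-poor promoters with a peak (red, 2.99 sites in the highest bin) and without one (blue, 3.22).

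The annotation of these promoters differed from that of the CpG-poor promoters without a peak in both replicates. No CpG-rich TSS (ratio of 0.5 or more), of the gene itself or of another gene within 1000 bp, was annotated for 460 of the 568 (81%). The gene had a CpG-rich TSS elsewhere in 104 cases (18.3%), against 404 of 5245 without a peak in both (7.7%). In 4 cases a CpG-rich TSS of another gene was nearby. The TSS lay inside another protein-coding gene in 91 cases (16%), against 8.62%. The TSS was supported by a transcript of the highest GENCODE support level in 64.6%, against 41.4%. The first TSS of a principal transcript, as marked by APPRIS, lay within 500 bp of the TSS used in 81.2%, against 88.3%. Several TSSs were annotated for 80.1% of the genes, against 63.8%. The part of this number of TSSs in the shares with a CpG-rich TSS elsewhere was not tested. Scores of the 460 were close to those of the whole group, with medians of 47 and 57. Accessible promoters of 18 genes shared a peak with another, as in the neighbouring genes Tmem176a and Tmem176b, a pair picked out after the values were seen.

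Inside the peaks, CpGs were scarce at these promoters, as the rule for the wider window makes likely. The best peak held a median of 2 CpGs in 150 bp, against 14 at other promoters. In 70 of 568 cases it held none (12.3%), a share like that of distal peaks (12.2%), and in 120 it held 1. At other promoters 0.106% held none. GC content of the peak still had a median of 55.3%, above the 51.3% of distal peaks and below the 66.7% of other promoters. Only 9 of the 568 peaks (1.58%) consisted mostly of repeats.

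TATAAA at its usual place was uncommon at accessible CpG-poor promoters. The element lay wholly between 40 and 20 bp upstream of the TSS on the strand of the gene in 19 of 568 (3.35%, interval 2.15% to 5.17%). It was found in 284 of 5245 CpG-poor promoters without a peak in both replicates (5.41%, interval 4.83% to 6.06%), in 116 of 13155 other promoters with one (0.882%) and in 2.33% of all promoters. Of the 304 promoters whose peaks were in the better-scoring 50% of both lists, 3 carried it (0.987%, interval 0.336% to 2.86%). By mean rank, 2 stood in the upper 284 and 17 in the lower 284. Where a CpG-poor promoter had the element, 6.27% were accessible (19 of 303, interval 4.05% to 9.59%). Of those that lacked it 9.96% were (interval 9.2% to 10.8%), and these intervals overlap. The part of GC content in these shares was not tested.

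The 2 in the upper ranks were Adamtsl2 and Acy3. Adamtsl2, a secreted glycoprotein of the extracellular matrix, scored 115 and 121 in replicates 1 and 2. Acy3, an aminoacylase of kidney and liver, scored 84 and 96. Next by rank came Postn, encoding the matrix protein periostin, with 47 and 57, and Serpinb1a, an inhibitor of neutrophil proteases, with 46 and 48. S100a4, a calcium-binding protein of motile mesenchymal cells, scored 40 and 54, and Ecm1, a matrix protein, 41 and 48. Art1 scored 32 and 49, Kcnj13, a potassium channel of epithelia, 31 and 50, and Agt, the precursor of angiotensin, 31 and 44. Gm11541 scored 36 and 37. As in the printed sequences, the element lay within the peak itself in some of them. The best peak covered the middle of its window in 8 of the 19, while that of S100a4 lay downstream with its midpoint at 120 bp.

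For most other motifs, the share of CpG-poor promoter peaks lay nearer to that of distal peaks than to that of other promoters. The E-box CAGCTG, bound by many basic helix-loop-helix factors, was in 23.1% of them (131 of 568, interval 19.8% to 26.7%), against 18.5% of distal peaks and 8.29% of the peaks at other promoters. The E-box CAGATG, favoured by neurogenic factors, was in 13.2% (interval 10.7% to 16.2%), against 18.8% and 4.51%. Both are forms of CANNTG, which was in 60.4%, 64.4% and 34.6%. The Ets motif AGGAAG was in 27.1% (interval 23.6% to 30.9%), against 20.1% and 15.9%. The GC box, which holds a CpG and is therefore limited by the rule, was in 15.7%, against 8.2% of distal peaks and 58.4% of the peaks at other promoters. CCAAT was in 17.8%, like distal peaks (17%) and below other promoters (28.4%). A match to the CTCF consensus, the insulator protein, was in 10.2%, 9.34% and 9.67%. The homeodomain motif TAATTA was rare, in 0.88% (5 of 568), against 3.36% of distal peaks and 0.487% of peaks at other promoters, and here the nearer value is the latter. Peaks with TATAAA anywhere and on either strand were 4.05%, against 4.96% and 2.15%.

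Windows of 150 bp at one fixed place, centred 20 bp upstream of the TSS, allowed a comparison with promoters that lack a peak in both replicates. There CAGCTG was in 15.7% of accessible CpG-poor promoters, 9.76% of CpG-poor promoters without a peak in both replicates and 8.96% of all promoters. The GC box was in 12%, 3.47% and 37%. The CTCF consensus was in 6.34%, 2.12% and 6.61%, and AGGAAG in 30.3%, 25.4% and 20.3%. Without chemoreceptor genes, AGGAAG was in 28.5% of the CpG-poor promoters without a peak in both replicates, inside the interval of 26.6% to 34.2% of the accessible ones. TATAAA on either strand went the other way, with 6.87%, 15.3% and 6.92%, and so did TAATTA, with 1.23%, 4.59% and 1.83%. Without chemoreceptor genes, the 15.3% for TATAAA was 14.4% and the 4.59% for TAATTA was 2.37%, inside the interval of 0.598% to 2.52% of the accessible promoters. CCAAT differed less, with 20.1%, 23.3% and 24.1%. The windows of the accessible promoters were also richer in GC, with a median over the full window of 50.6% against 43.9%, and the part of GC content in these motif shares was not tested.

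**Figure D4:**
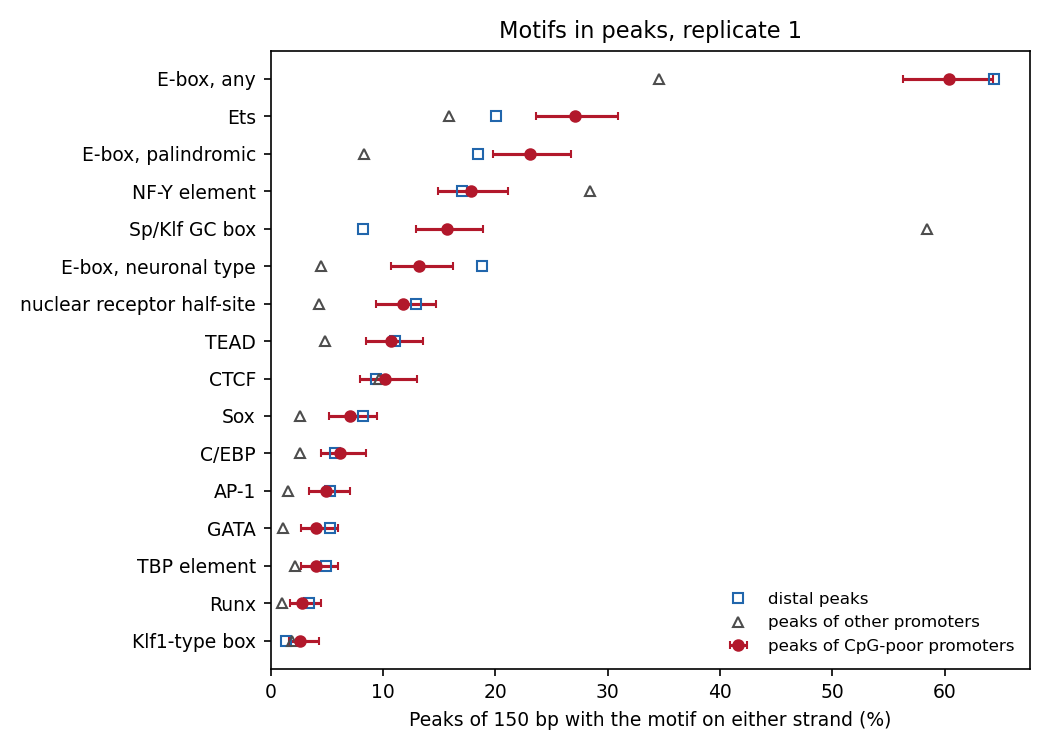
Share of 150 bp peaks of replicate 1 with each motif on either strand (x axis, %), for the best peaks of CpG-poor promoters (red, with Wilson 95% intervals), distal peaks (blue squares) and peaks of other promoters (grey triangles). Motifs in at least 2.5% of the CpG-poor promoter peaks are shown. The red points lie near the squares for most motifs, and the GC box, at 15.7% against 58.4%, is farthest from the triangles.

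The 10 best-ranked promoters belonged to genes of varied function. Angptl2, a secreted angiopoietin-like protein, scored 139 and 141. Emilin1, an elastic fibre glycoprotein, scored 122 and 130, and Col22a1, a collagen of tissue junctions, 118 and 129. Fez1, an adaptor in axon growth, scored 123 and 121, and Nrn1l, related to the neuritin that promotes neurite outgrowth, 116 and 127. The others were Fam92b with 133 and 135, Ptms with 135 and 133, Gm20661 with 130 and 135, Atp5j2, a subunit of ATP synthase, with 125 and 134, and Sra1 with 122 and 122. Ptms, Atp5j2, Fez1 and Sra1 are among the genes with a CpG-rich TSS elsewhere. At Atp5j2 and Sra1 the peak lay in an untranslated exon 492 and 504 bp downstream of the TSS used here and held 10 and 12 CpGs, many for this group.

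Across 25 gene lists, 123 of the 568 genes (21.7%) belonged to at least 1 list, and the counts below stand against the 9.77% of all CpG-poor promoters. Without olfactory, vomeronasal and other chemoreceptor genes, that share was 12.6% (548 of 4350). For some genes named below, the first TSS of a principal transcript was not within 500 bp of the TSS used. Col1a2, Ecscr, Hoxb2, Chrna4, Gria1, Il17b, Il18, Nphs1 and Zkscan17 are among them, so their peaks may not mark the main promoter. Notch4, Tnnt1, Chrna4 and Zkscan17, and H2-Eb1 of the class II genes, are among the genes with a CpG-rich TSS elsewhere. Connective tissue stood highest among the lists with more than 3 CpG-poor genes. Of 22 CpG-poor genes of cartilage, bone and connective tissue, 11 were accessible (50%, interval 30.7% to 69.3%). Col3a1, a fibrillar collagen of soft tissue, scored 87 and 95. Dcn, the small proteoglycan decorin, scored 68 and 78. Col1a2, a chain of type I collagen, scored 83 and 62 in peaks that do not overlap between the replicates, and Lum, the proteoglycan lumican, 65 and 73. Besides Postn, the others were Fmod, Prelp, Omd, Snorc, Spp1 and Ecm2, named after their values were seen, of which Ecm2 was the weakest at 23 and 22. Col9a1 of cartilage and Aspn were without a peak in both replicates.

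Endothelium followed with 6 of 14 (42.9%, interval 21.4% to 67.4%). Stab1, a scavenger receptor of sinusoidal vessels, scored 52 and 70. Notch4, a Notch receptor of vessels, scored 52 and 64, and Ecscr, a surface protein of endothelial cells, 56 and 54. Aplnr, the apelin receptor of growing veins, scored 47 and 55. The remaining ones were Myct1 with 40 and 33 and Robo4 with 34 and 39, both named after their values were seen. Cdh5, the vascular cadherin, and Egfl7 lacked a peak in both at the TSS used here. In smooth muscle, Cnn1 (calponin, 58 and 55) and Actg2 (enteric actin, 39 and 40) were accessible among 3 CpG-poor genes, and Higd1b was not.

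Few developmental transcription factors are CpG-poor, 17 of 256 in the list, and 5 of them were accessible (29.4%, interval 13.3% to 53.1%). Hoxb2, a hindbrain patterning gene, scored 93 and 100 and had 38 distal peaks within 50 kb, the most in the group. The midpoint of its best replicate 1 peak lay at −374 bp from a TSS that is not its principal one. Pax8, of thyroid and kidney, scored 35 and 45. Klf1, the erythroid Krüppel-like factor, scored 28 and 50, and Runx2, the bone master factor, 29 and 29. Nr1h5, named after its values were seen, scored 25 and 31. Of 12 CpG-poor neuronal genes 3 were accessible (25%, interval 8.89% to 53.2%): Neurod4, a proneural factor, with 95 and 102, and Nhlh1 and Nhlh2, factors of newborn neurons, with 86 and 80 and with 43 and 56. Th and Dbh, enzymes of catecholamine synthesis, were not.

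The blood cell lists had shares from 0% to 21.1%. Of 19 CpG-poor erythroid genes 4 were accessible (21.1%, interval 8.51% to 43.3%). Among them, Klf1 is named above, Epb42, a membrane skeleton protein, scored 39 and 36, and Trim10 scored 26 and 32. The CpG-poor globin genes of the list were without a peak in both replicates. They include adult ones such as Hbb-bt and Hbb-bs and embryonic ones such as Hbb-y and Hba-x. The embryonic ones are named after their values were seen. No source used here says how reads that fit more than 1 globin gene were placed. Of 29 CpG-poor myeloid genes 3 were accessible (10.3%). Cd68, a macrophage lysosomal protein, scored 60 and 68, Camp, an antimicrobial peptide of neutrophils, 32 and 26 in peaks that do not overlap, and Adgre1, the F4/80 antigen, 29 and 19. Csf1r and Cx3cr1 were not. Of 14 platelet and mast cell genes only Gp5 was, with 33 and 36. None of 20 CpG-poor lymphocyte genes was accessible, with a Wilson upper bound of 16.1%, and Cd3d and Cd3g are among them.

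Striated muscle and liver genes had shares near that of all CpG-poor promoters. Of 24 CpG-poor striated muscle genes 3 were accessible (12.5%, interval 4.34% to 31%). Tnnt1, slow skeletal troponin T, scored 80 and 86, Tnnt2, cardiac troponin T, 51 and 56, and Myh7, the slow and cardiac myosin, 51 and 49. Actc1, cardiac actin, and Myl2, the ventricular light chain, were not. Of 37 hepatocyte plasma protein genes 3 were (8.11%, interval 2.8% to 21.3%). F7 and F10, both clotting factors, scored 40 and 60 and 30 and 40, and Vtn, vitronectin, 43 and 49. Apoa1 and Apoa2, the main apolipoproteins of high-density lipoprotein, were not. In epithelium Gjb5, a connexin, scored 66 and 65 and Trp63, the epidermal stem cell factor, 27 and 39, so that 2 of 9 were accessible, without Krt19 and Krt7.

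The lists of chemoreceptors, of cornified envelope and hair genes and of placental genes had shares below the background. Chemoreceptors had 20 of 1463 (1.37%, interval 0.887% to 2.1%), cornified envelope and hair genes 1 of 94 (1.06%, interval 0.188% to 5.78%) and placental and decidual genes 1 of 65 (1.54%, interval 0.272% to 8.21%). These were Krt77 with 34 and 43 and Prl3b1 with 15 and 24, where 15 is the lowest replicate 1 score of the group and was shared by other genes. None of 12 sperm genes was accessible, among them Prm1 and Prm3, with a Wilson upper bound of 24.2%. Among chemoreceptors, Olfr156 scored 91 and 100 with its midpoint 296 bp upstream of the TSS. Olfr464 scored 67 and 76, Vmn1r200 39 and 59, and Olfr557 40 and 53. The only 2 of the 568 best peaks with a match to the NRSF consensus, bound by a repressor of neuronal genes, were at chemoreceptor genes, Olfr464 and Olfr1336. This was noticed after the values were seen, and the share of 0.352% stands beside 0.259% of distal peaks and 0.152% of peaks at other promoters.

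Other lists lay closer to the background. Solute carriers and channels had 17 of 120 (14.2%, interval 9.04% to 21.5%), led by Slc16a4, a monocarboxylate transporter, with 95 and 99. Trpm5, a cation channel of taste cells, followed with 82 and 91, Chrna4, a neuronal acetylcholine receptor subunit, with 72 and 64 in peaks that do not overlap, and Gria1, a glutamate receptor subunit, with 63 and 70. Drug metabolism had 10 of 115 (8.7%), with Cyp4f16 at 96 and 100, Cyp4f13 at 90 and 95, Gstm2 at 70 and 85 and Sult5a1 at 47 and 75. The list of immune lectins and surface receptors had 12 of 157 (7.64%), with Gbp5 at 52 and 71 and Treml2 at 52 and 52. It was drawn by gene symbol and also holds Gbp, Slfn and Ifit genes, Gbp5 among them, that are neither lectins nor surface receptors. The antimicrobial list had 6 of 90 (6.67%), with Wfdc1 at 40 and 59 and S100a16 at 39 and 49. This list too was drawn by gene symbol, and S100a4 and S100a16 in it are calcium-binding proteins. Cytokines had 4 of 63 (6.35%), with Il17b at 103 and 117 and Il18 at 87 and 103. The best peak of Il18 is also that of the neighbouring gene Bco2. Genes of adult organs had 4 of 40 (10%), with Nphs1, the nephrin of kidney podocytes, at 91 and 92 and the milk casein Csn3 at 55 and 69. Nphs1 has a CpG-rich TSS elsewhere, and its best peak had its midpoint at −484 bp and held 9 CpGs. Hormones had 2 of 17, Lhb at 59 and 68 and Agt. Lens, retina and pigment genes had 2 of 18, among them Oca2 at 36 and 39. Zinc finger genes had 2 of 41, Zfp366 at 47 and 52 and Zkscan17.

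**Figure D5:**
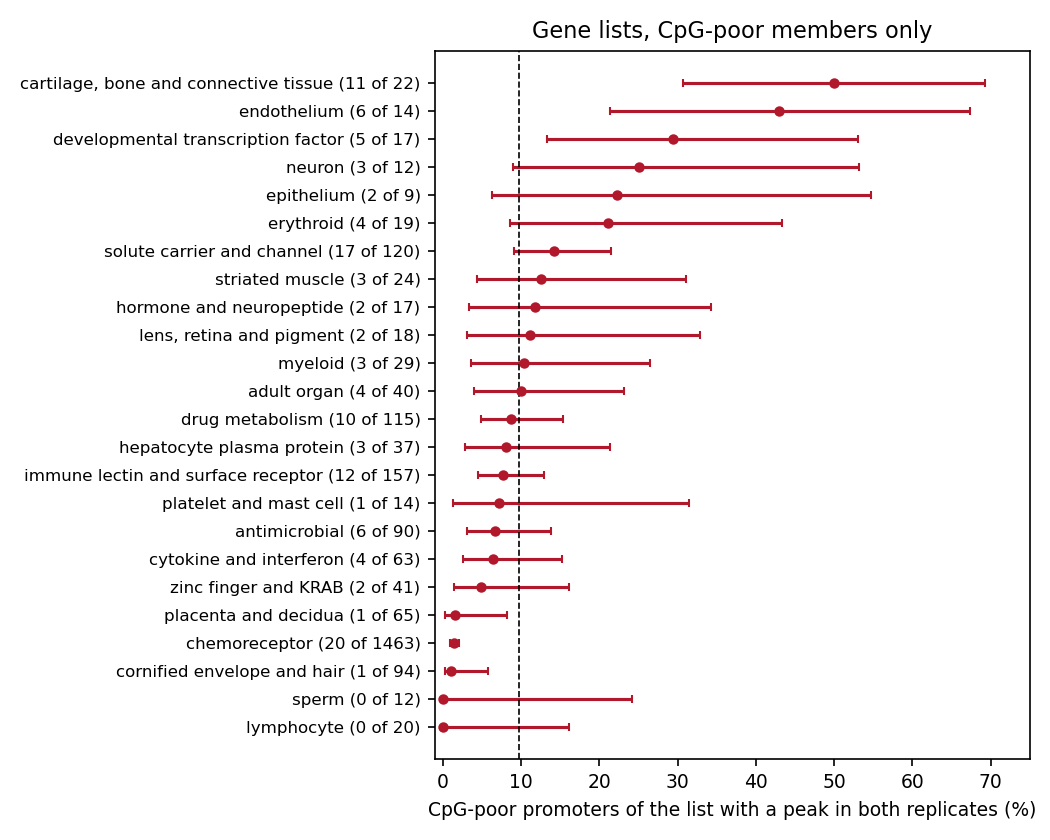
Share of the CpG-poor promoters of each gene list that had a peak in both replicates (x axis, %), with Wilson 95% intervals; counts stand beside each name, and lists with at least 9 CpG-poor genes are shown. The dashed line is the 9.77% of all CpG-poor promoters. Connective tissue (50%) and endothelium (42.9%) lie highest, and chemoreceptors (1.37%) and cornified envelope genes (1.06%) lie among the lowest.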

How the data were processed

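DNase-seq of 2 replicates was analysed from peak and hotspot intervals that, per the file headers and accompanying text, the authors derived from the filtered mm10 alignments of each replicate. No source used here names the aligner or the caller. The deposited score of peaks was used to rank them within a list and to set medians side by side. The deposited hotspot value is the −log10 of a q value. Chromosome lengths of the GRCm38 sequence held all intervals. Ratios, positions, motifs (exact consensus, both strands, in the 150 bp peak of best score) and gene lists were computed with Python 3.11.15, numpy 2.4.6, scipy 1.17.1, pysam 0.24.0 and matplotlib 3.10.9, and the functions were tested on simulated data. Intervals are Wilson intervals at 95%. A test between samples does not exist for 1 group.

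The genes named are up to 4 accessible genes of each list by mean rank of score, the 10 best-ranked, the 3 to each side of the ratio threshold, up to 2 per list without a peak in both replicates, and up to 10 with TATAAA; some items this rule selects are not reported here. Members and lists were chosen with earlier results of these data known. Alternatives covered the ratio threshold, window, TSS choice, score, overlap, hotspots and each replicate alone.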

Additional observations from a re-analysis of the deposited data

How the results depend on the processing

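Each alternative changed 1 choice, except that windows of 250 bp applied to the ratio and to the search for peaks together. The number of accessible CpG-poor promoters was 334 with a ratio threshold of 0.20, 865 with 0.30 and 304 with the better-scoring 50% of each list; it was 467 with windows of 250 bp, 537 with the principal TSS, 532 with peaks overlapping by at least 75 bp and 621 with hotspots, and 677 to 734 from 1 replicate. In the order 0.20, 0.30, 250 bp, better-scoring 50% and hotspots, the share of CpG-poor promoters was 7.11%, 12.8%, 8.26%, 5.23% and 10.7%, and 11.6% to 12.6% from 1 replicate. In the order 0.20, 0.30, 250 bp, principal TSS, better-scoring 50%, overlap and hotspots, the share with TATAAA was 4.49%, 3.12%, 2.78%, 3.54%, 0.987%, 3.2% and 3.22%, and 3.68% to 3.69% from 1 replicate. The median midpoint was −29.5, −21.5, −29.5, −29.5, −23.5, −22 and 1.5 bp in the same order, the last downstream, and −14.5 to −13.5 bp from 1 replicate. Hotspots at the ceiling were 40.1% (0.20), 48.7% (0.30), 71.1% (better-scoring 50%) and 47.7% (hotspots), and 37.1% to 41.4% from 1 replicate. The cause of these shifts was not tested. No paired analysis was possible because the replicates form 1 group. Read depth is unknown.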

Other observations

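Genes of the MHC class II family, which take part in the presentation of antigen by immune cells, were picked out after the values were seen. Of 10 annotated class II and related genes 9 were CpG-poor, and 8 of these had a peak in both replicates. The share over all CpG-poor promoters was 9.77%, and the family was chosen for its peaks, so its count is a description only. H2-Eb1 scored 92 and 90, H2-Aa 69 and 94, H2-DMb2 43 and 46, H2-Ab1 41 and 50, H2-DMb1 41 and 50, H2-Ob 33 and 29, and H2-Eb2 32 and 39. Cd74 was the eighth gene. H2-Oa was CpG-poor without a peak in both replicates. A CCAAT box was in the best peak of 7 of the 8, all but H2-DMb2, against 17.8% of all accessible CpG-poor promoters. Of the 20 CpG-poor lymphocyte genes none was accessible and of the 29 myeloid genes 3 were.

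The complement proteases C1r and C1s, picked out in the same way, had 4 of 5 CpG-poor genes accessible, beside 9.77% of all CpG-poor promoters. C1rl scored 98 and 112, C1ra 65 and 83, C1rb 49 and 60 and C1s1 43 and 67, and C1s2 was without a peak in both replicates. C1ra and C1rb are duplicated genes, and no source used here says how reads that fit both were placed. Other families were also looked at after the values were seen. The group of Trim12, Trim21 and Trim30 genes had 5 of 8 CpG-poor genes accessible, and the Emilin, Mfap and Angptl genes had 5 of 8.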
